A study of Mus musculus with 15 samples.

Results

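The undifferentiated spermatogonia described here were 322 of the 76494 cells kept from 15 single-cell libraries of mouse testis. They were chosen by their transcripts and not by a sort or a cluster. A cell was kept with at least 500 genes, at least 1000 UMIs (unique molecular identifiers, each standing for 1 captured transcript molecule) and under 30% mitochondrially encoded UMIs. A kept cell was a member when at least 2 of the 7 markers Gfra1, Zbtb16, Sall4, Etv5, Id4, Lin28a and Nanos3 were detected, when it held no UMI of the later germ cell genes Stra8, Piwil1 and Acrv1, and when it held at most 1 UMI summed over the Sertoli cell genes Wt1, Sox9 and Rhox8. The label held for some of the members and not for others: 122 of the 322 carried over 10% of their UMIs on genes of late spermatids, the last germ cells of spermatogenesis, and the spermatogonial genes Dmrt1 and Ret had no UMI in any of those 122. Results are therefore given for the members as chosen and, as an alternative chosen after the data were seen, for the 172 members with at most 2% of UMIs on late spermatid genes. That limit was not set on genes of spermatocytes, the germ cells in meiosis, and many of the 172 held such transcripts.

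Each library held the cells of 1 testis of 1 adult DBA/2J male, with 3 libraries in each of 5 groups. T mice received the BET bromodomain inhibitor JQ1 at 50 mg/kg by daily intraperitoneal injection for 3 wk and were taken at the end of dosing at 10 wk of age. VC-T mice received the vehicle, DMSO in hydroxypropyl-β-cyclodextrin, for the same 3 wk and were also 10 wk old. R mice received the same 3 wk of JQ1 and were taken 6 wk after the last dose at 16 wk of age. VC-R mice received 3 wk of vehicle and were also taken 6 wk after the last dose at 16 wk of age. UC mice were untreated and 15 wk old. JQ1 competes for the acetyl-lysine pockets of the BET family, which includes the testis-specific BRDT, so a change in T cannot be assigned to 1 family member.

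Undifferentiated spermatogonia lie on the basement membrane of the seminiferous tubule and comprise the spermatogonial stem cells and the progenitors that still divide without entering meiosis. Sertoli cells supply GDNF, a growth factor that binds the receptor pair GFRA1 and RET and sustains self-renewal, with ETV5 among the transcription factors it induces. ZBTB16 (PLZF) and SALL4 are zinc finger regulators of the undifferentiated state, ID4 marks the stem cell end of the population, and LIN28A and NANOS3 are RNA-binding proteins found toward the progenitor end. Retinoic acid then drives the transition to differentiating spermatogonia, which gain the receptor KIT and later STRA8 on the way into meiosis.

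The libraries held 9673587 to 98724982 UMIs, with kept-cell medians of 2492 to 4296 UMIs. At most 31 kept cell barcodes were shared by any pair of libraries (R 1 and R 3), with a median of 6 over the 105 pairs. Late haploid cells, defined by over 10% late spermatid UMIs, made up 0.0751% to 0.584% of the kept cells in T and 32.0% to 66.5% in the other libraries, except the library labelled VC-T 1, which held 0.0172%. Spermatocytes (at least 2 of Sycp1, Sycp3 and Hormad1, with Piwil1 and without Acrv1) were 25.8% to 37.2% of the kept cells in T, 22.5% in VC-T 1 and 4.22% to 9.84% elsewhere. VC-T 1 therefore stood apart from its group and on the side of T. It was left out of the tests, as in the study's own comparisons, and the T counts are also given with it, with the named genes that then lost their call. These values do not settle whether its label holds.

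Members were rare in every library. There were 25, 17 and 13 in T 1, 2 and 3 (0.428%, 0.426% and 0.506% of kept cells) and 17, 26 and 18 in VC-T 1, 2 and 3 (0.292%, 0.686% and 0.488%). UC held 8, 16 and 24 (0.244%, 0.517% and 0.540%), VC-R 11, 16 and 9 (0.218%, 0.422% and 0.308%), and R 23, 24 and 75 (0.327%, 0.311% and 0.557%). The exact binomial 95% intervals of these shares ran from 0.105% to 0.480% for the 8 cells of UC 1 and from 0.438% to 0.697% for the 75 cells of R 3. They covered counting error only. The groups overlapped throughout.

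**Figure D1:**
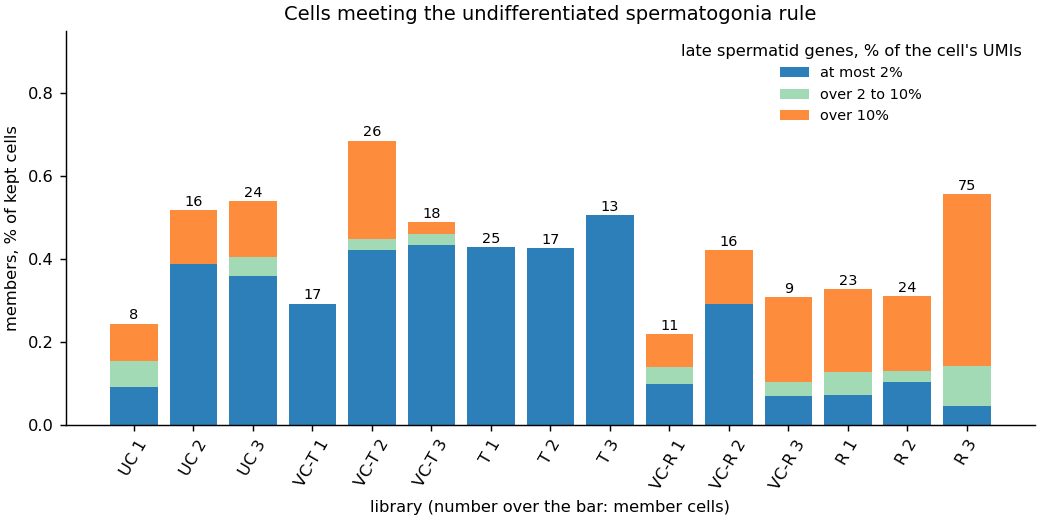
Members as a percentage of kept cells in each of the 15 libraries, with the number of member cells over each bar. The colours split the members by the share of their UMIs on 9 late spermatid genes. All 55 members of T and the 17 of VC-T 1 fall in the class of at most 2%, while 84 of the 122 members of R are over 10%.

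The late spermatid list held the protamines Prm1 and Prm2, the transition proteins Tnp1 and Tnp2, and Smcp, Odf1, Oaz3, Gapdhs and Tssk6, which build or fuel the sperm head and tail. Over the members, the share of a cell's UMIs on these 9 genes left 172 cells at or under 2%, 28 cells between 2% and 10%, and 122 cells above 10%. Members above 10% numbered 0 of 55 in T, which allows a share of up to 5.45%, and 84 of 122 in R. They were 13 of 48 in UC, 10 of 61 in VC-T (9 of them in VC-T 2) and 15 of 36 in VC-R. The members of T reached at most 0.899%, and those of R 3 alone gave 56 of the 122 cells above 10%.

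**Figure D2:**
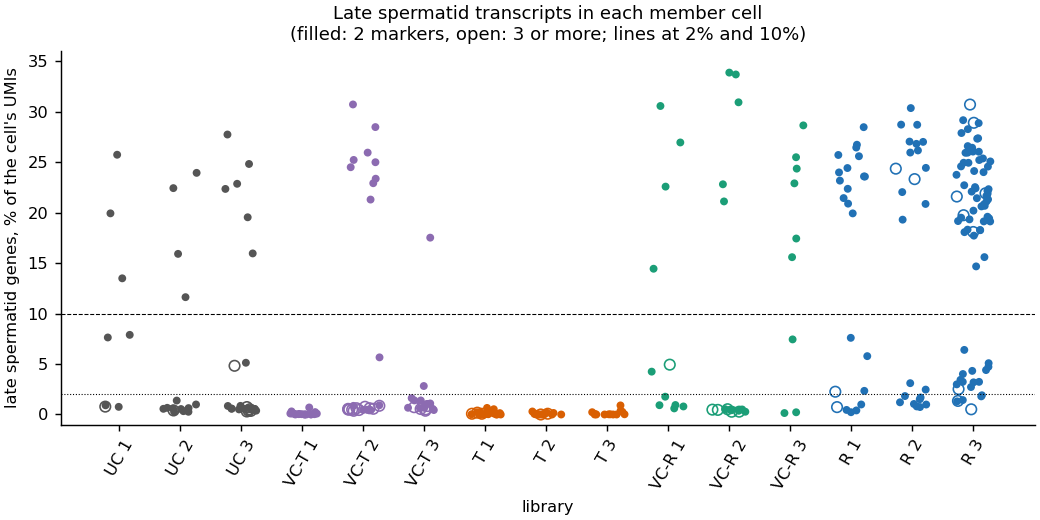
Share of each member cell's UMIs on the 9 late spermatid genes, by library, with lines at 2% and 10%. Filled points are cells with 2 markers and open points cells with 3 or more. Points lie near 0 or between 10% and 34%, with 28 cells in between.

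The cells above 10% held few spermatogonial transcripts outside the rule, and 15 of the 122 had at least 2 of 7 pan-spermatogonial genes. Their median depth was 10129 UMIs (R 11596, UC 3443), their median mitochondrially encoded share 0.0368%, and Dmrt1, Ret, Crabp1, Ccnd2 and the rule marker Sall4 were each detected in 0 of 122, which allows a share of up to 2.46%. Uchl1, a ubiquitin hydrolase used as a spermatogonial marker, was detected in 13.9% of them, against 8.67% of the 29053 late haploid cells outside the rule at a median of 3616 UMIs. The members at or under 2% had a median of 2869 UMIs and 3.83% mitochondrially encoded UMIs. In them Uchl1 was detected in 61.0%, the spermatogonial transcription factor Dmrt1 in 36.6%, the germ cell RNA-binding protein Dazl in 50.6%, the GDNF receptor Ret in 19.2% and Kit in 4.65%. Spermatocyte genes were as common in this set. At least 2 of 6 spermatocyte genes were held by 97 of the 172, and at least 2 pan-spermatogonial genes by 95. These counts were 31 and 24 of 55 in T, 55 and 61 of 98 in UC, VC-T and VC-R, and 11 and 10 of 19 in R. Sycp3 was detected in 62 of the 172. Whether such cells were spermatocytes was not tested.

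Spermatogonial genes outside the rule were found more often in members with more rule markers, which is a description. Of the 36 members with 3 or more markers and at most 2% late UMIs, 91.7% held Uchl1, 58.3% Dmrt1, 50.0% Ret and 0 of 36 Kit. Of the 136 members with exactly 2 markers in that range, the shares were 52.9%, 30.9%, 11.0% and 5.88%. Cells just outside the rule, with exactly 1 marker and at most 2% late UMIs, numbered 1425, and Uchl1, Dmrt1 and Ret were detected in 15.5%, 7.02% and 1.54% of them. In spermatocytes, which should lack Ret, it was found in 0.0767% of cells at a median of 6035 UMIs, and in late haploid cells in 0.0310%. The 746 differentiating spermatogonia used for comparison (at least 2 of Kit, Stra8, Dmrtb1 and Sohlh1, fewer than 2 rule markers, and the exclusions above except that on Stra8) held Kit in 48.5%, Dmrt1 in 30.7% and Ret in 0.804%, and 192 of them (25.7%) also had over 10% late spermatid UMIs. Kit helped choose this set, so its share there is a description.

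**Figure D3:**
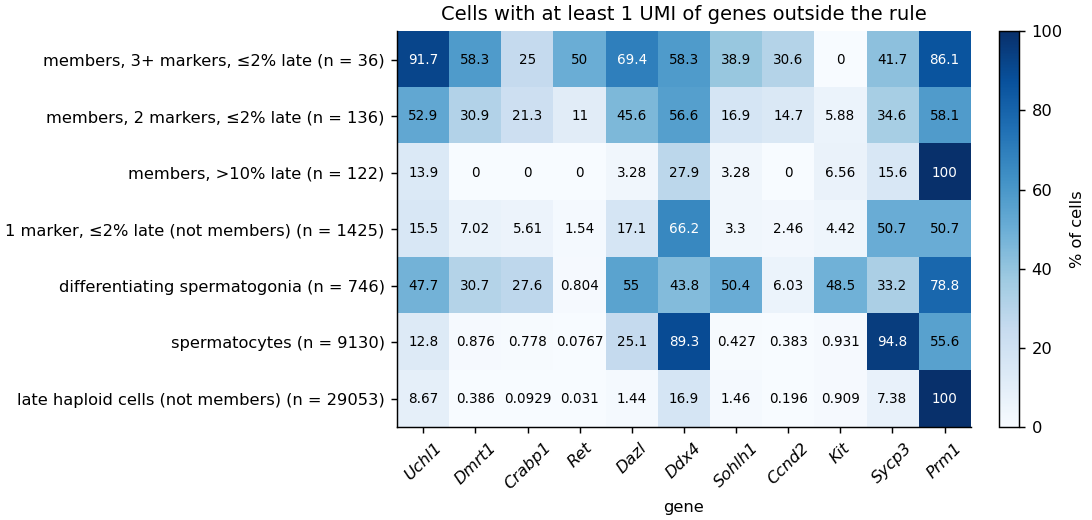
Percentage of cells with at least 1 UMI of 11 genes that did not choose the members as positive markers, in members split by marker number and late spermatid share and in 4 sets of cells outside the rule. Kit and Sohlh1 helped choose the differentiating spermatogonia, Sycp3 the spermatocytes, and Prm1 the late spermatid classes. Ret runs from 50.0% in members with 3 or more markers and at most 2% late UMIs to 0 of 122 in members above 10%, and Prm1 is in all of the latter.

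Id4 and Gfra1 carried most of the members above 10%. The markers chose the members, so the following counts are descriptions. Id4 was detected in 184 of 322 members, of which 97 were above 10%, and Gfra1 in 163, of which 74 were. Sall4 was found in 47 members and in 0 of those above 10%, and Zbtb16 in 114, of which 13 were. Lin28a was detected in 45, Nanos3 in 97 and Etv5 in 63 members, of which 7, 28 and 33 were above 10%. The evidence per cell was thin, since between 71.1% (Zbtb16) and 92.1% (Etv5) of detections rested on 1 UMI. The most common pair was Gfra1 with Id4, in 105 members, of which 56 were above 10%, whereas Zbtb16 with Nanos3 marked 38 members, of which 1 was. Outside the rule, Id4 was present in 54.6% of spermatocytes, while Zbtb16 was present in 0.449% and Gfra1 in 3.11%. Of the members, 274 had 2 markers, 33 had 3, and 15 had 4 or more. Another 1153 cells had 2 or more markers but were excluded, 709 with Acrv1, 623 with Piwil1, 96 with Stra8 and 68 with over 1 Sertoli UMI, and some met several of these exclusions.

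The rule markers were spread over 7 chromosomes of the mouse genome (build mm10). Gfra1 lay on chromosome 19 from 58235604 to 58455909, Zbtb16 on chromosome 9 from 48654297 to 48836222, and Sall4 on chromosome 2 from 168748332 to 168767943. Etv5 lay on chromosome 16 from 22381309 to 22439719, Id4 on chromosome 13 from 48261228 to 48266026, Lin28a on chromosome 4 from 134003330 to 134018841, and Nanos3 on chromosome 8 from 84173731 to 84185217. Prm1, Prm2 and Tnp2, which carried much of the late spermatid signal, were neighbours on chromosome 16 between 10787936 and 10805839.

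Levels of the rule markers were compared as a description, in CPM, a gene's UMIs scaled to a common total of the summed UMIs of the members of a library, here the members with at most 2% late UMIs and the libraries with at least 5 such cells. Zbtb16 stood at 158, 149 and 152 in T, at 195 and 510 in VC-T 2 and 3, at 335 and 311 in UC 2 and 3, at 299 and 381 in VC-R 1 and 2, and at 37.9, 258 and 417 in R. T lay below every control library of that fit, and R spanned both ranges. VC-T 1 stood at 149. Id4 ran the other way in part, at 181, 112 and 228 in T against 56.9 and 102 in VC-T 2 and 3 and 122 and 104 in UC 2 and 3. Gfra1 overlapped, at 102, 186 and 152 in T and 81.3 to 286 in the control libraries of the fit.

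Other genes of the stem cell and GDNF response were sparse. Of 31 listed, 30 were detected in at least 1 of the 322 members. Epcam, a surface adhesion protein, was seen in 73 members, the GDNF-responsive phosphatase Dusp4 in 60, the transcription factor Foxo1 in 45, Taf4b in 38, Ret in 36, Cd9 in 35 and Pou3f1 in 26. The stem cell regulators Nanos2 and Pax7 were each detected in 1 member, and Thy1 in 0, which allows up to 0.932%. Epcam was found in 19.7% of the members above 10%, whereas Foxo1 and Ret were found in 0 of them. Of the progenitor genes, Sox3 was detected in 27 members, Ccnd2 in 33, Rarg in 10 and Neurog3 in 1. Because few UMIs fell on these lists, 0 of the 31 stem and GDNF genes and 0 of the 9 progenitor genes passed the filter on low counts, and no fold change is given for them.

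Among members at or under 2%, Ret was detected in 24 of 98 control cells, 5 of 55 T cells and 4 of 19 R cells, and Sox3 in 21, 4 and 2. Uchl1 was detected in 67, 28 and 10 of these cells and Dmrt1 in 39, 14 and 10. These counts were not tested, and the cells differed in depth, with medians of 2931 UMIs in controls, 1894 in T and 4129 in R. In CPM, which scale with depth, Ret stood at 33.9, 55.9 and 25.3 in T, at 138 and 102 in VC-T 2 and 3, at 122 and 104 in UC 2 and 3, and at 0 and 254 in VC-R 1 and 2. The T values lay below both VC-T and both UC libraries and between the VC-R libraries. VC-T 1 had 0. Of the T members, 33 of 55 held at least 1 UMI of Uchl1, Dmrt1, Crabp1 or Ret, against 68 of 81 in the controls without VC-T 1, 7 of 17 in VC-T 1 and 11 of 19 at or under 2% in R.

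Markers of somatic cells were looked for among all members. At least 2 of the 5 Leydig cell genes were detected in 6 members, all of them above 10% late UMIs. The macrophage, peritubular myoid and endothelial lists reached 2 genes in 0 members. At least 2 of 9 further Sertoli genes were detected in 33 members, of which 22 were in R and 0 in T.

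The first question of the design was whether 3 wk of JQ1 changed the share of these cells among the kept cells. The number of cells per testis was not measured. The share did not differ beyond the spread between libraries. Members were 0.453% ± 0.0457 (SD, n = 3) of kept cells in T and 0.495% ± 0.160 (n = 5) in UC and VC-T without VC-T 1. The difference was −0.0418 percentage points (exact two-sided permutation test, p = 0.679, adjusted p = 0.762 over 4 tests, smallest p possible 0.0357). A lone p at that minimum would not pass the adjustment over 4 tests. The share of kept cells also falls or rises with every other cell type, so members were counted per 100 differentiating spermatogonia as well. This ratio was 33.0 ± 5.22 (SD, n = 3) in T and 39.7 ± 13.6 (n = 5) in the controls, a difference of −6.63 (exact permutation p = 0.536, adjusted p = 0.762). Restricted to members at or under 2%, the share in T was higher by 0.114 percentage points (0.339% ± 0.141 in the controls, n = 5, exact permutation p = 0.143) and, with VC-T 1 included, by 0.122 (p = 0.0952). The ratio then also turned, higher in T by 6.99 (exact permutation p = 0.357). In its denominator, 0 of 164 differentiating spermatogonia of T had over 10% late UMIs, against 89 of 371 over UC, VC-T with VC-T 1, and VC-R. Members of T were shallower, and with each cell thinned to 1000 UMIs the difference in share was 0.0828 percentage points (exact permutation p = 0.0714), and to 2000 UMIs −0.144 (p = 0.179), so its direction depended on depth. A p that misses the threshold does not show that the shares were alike. UC mice also differed from T and R mice in age and were not injected, which comparisons with UC cannot tell apart from JQ1.

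The second question was whether the share differed from the controls 6 wk after dosing. Members were 0.398% ± 0.138 (SD, n = 3) of kept cells in R and 0.375% ± 0.138 (n = 6) in UC and VC-R, a difference of 0.0233 percentage points (exact two-sided permutation p = 0.762, adjusted p = 0.762, smallest possible 0.0238). Per 100 differentiating spermatogonia, there were 53.9 ± 20.5 (SD, n = 3) in R and 47.1 ± 7.92 (n = 6) in the controls, a difference of 6.83 (exact permutation p = 0.524, adjusted p = 0.762). The sign of this ratio was not stable. Thinned to 1000 UMIs a cell the difference was −8.78 (exact permutation p = 0.50) and to 2000 UMIs −5.10 (p = 0.690), and the difference in share became −0.0544 and −0.0710. Counting members at or under 2%, it was 9.63 ± 3.12 (n = 3) in R against 25.1 ± 11.8 (n = 6), a difference of −15.5 (exact permutation p = 0.0476, not adjusted, chosen after the data were seen). The R libraries stood at 6.12 to 12.1 and the controls at 11.1 to 40.0, so the ranges overlapped. Beside VC-R of the same replicate number, R stood at 10.6 against 22.7, 12.1 against 27.5 and 6.12 against 11.1, lower each time. The labels do not pair mice by number, and with 3 pairs the smallest two-sided p possible is 0.25. The comparison rests on 19 cells in R. The 2% limit was set on the members and not on the denominator. There, 103 of the 211 differentiating spermatogonia of R had over 10% late UMIs, against 89 of 371 over UC, VC-T and VC-R together. The VC-T libraries, VC-T 1 among them, were not part of this comparison. The part of the denominator in the difference was not tested.

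Gene levels were compared on UMIs summed over the members of each library, 23953 to 838070 UMIs in the 14 libraries fitted, with edgeR's quasi-likelihood test over 2327 genes. Called genes had an adjusted p below 0.05 (Benjamini-Hochberg) and changed by over 1 on the log2 scale in either direction. UC differed from T and R in age and injection, so a change against UC cannot be assigned to JQ1 alone. In T against UC, 462 genes (19.9% of those tested) were called, 97 higher (4.17%) and 365 lower (15.7%), and the median over all genes was −0.07 (log2). All 9 late spermatid genes were lower, with a median of −5.16. Of the 365 lower genes, 266 had over 2 times the CPM in late haploid cells as in differentiating spermatogonia, a property of 22.0% of the genes tested. The summed late spermatid list took 0.103% of member UMIs on average in T (0.0335% to 0.185%) and 7.69% in UC (5.82% to 9.52%), and its part in the other calls was not tested.

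Prm1 stood at 79.2, 18.6 and 50.7 CPM in T and at 25720, 16282 and 20604 in UC, a log2 fold change of −8.75 ± 0.75 (SE, adjusted p = 5.68e-09). The T and UC ranges did not overlap, and VC-T 1, at 16.5, lay with T. Prm2 (−8.01), Tnp1 (−6.01) and Tnp2 (−7.34) followed. The other lower genes with the smallest p were 1700042G07Rik, 1700027A15Rik (−5.29), the deubiquitinase Otub2, the progestin receptor family gene Paqr5, the mitochondrial DNA packaging factor Tfam and 4930544D05Rik. 1700042G07Rik had 0 UMIs in T and 88 in UC, at least 33.2-fold lower, and 4930544D05Rik 0 and 39, at least 14.7-fold lower, against a floor of 3 counts over the group. Otub2, Paqr5 and Tfam had 3, 2 and 2 UMIs in T, for ratios of 0.0308 (95% counting interval 0.00623 to 0.0931), 0.0215 (0.00256 to 0.0803) and 0.0221 (0.00263 to 0.0824) to UC.

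Among the genes higher in T than in UC, Smc4, a condensin subunit, stood at 803, 559 and 912 CPM in T and at 122, 184 and 165 in UC, a log2 fold change of 2.04 ± 0.46 (SE, adjusted p = 0.00268). Nipbl, which loads cohesin, was higher by 2.24 ± 0.58 (adjusted p = 0.00727). The mitotic kinase gene Aurka had 44 UMIs in T and 1 in UC, a ratio of 38.8 (95% counting interval 6.62 to 1569), and the centrosomal gene Cep72 had 42 and 2, a ratio of 18.5 (4.82 to 158). Ccdc178 had 59 and 1, a ratio of 52.1 (8.99 to 2092). Gm50240 (2.78), the scaffold gene Magi2 (3.59), Pwwp3a (2.27), the poly(A)-binding protein gene Pabpc2 (2.13) and the complex I assembly gene Ndufaf3 (2.00) completed the 10 with the smallest p. T values of Smc4 lay above every UC value, and VC-T 1, at 810, lay with T.

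By list, 3 of the 9 G2/M genes tested were called higher in T against UC (Aurka, Smc4 and the survivin gene Birc5, 1.99), and 0 lower, with a list median of 1.19. Of the spermatocyte genes, Shcbp1l was higher (2.00) and Sycp3, of the synaptonemal complex, was not called (1.85, adjusted p = 0.0699). Dmrtb1 (DMRT6), which acts in late spermatogonia before meiosis, was the 1 of 3 differentiating genes called, higher by 1.54 ± 0.49 (adjusted p = 0.0260). Jund, an AP-1 transcription factor, was lower by 1.53 on the log2 scale, and Cyp17a1, a Leydig steroid enzyme, was called lower on 47 UMIs in UC, with 920 CPM in UC 2, 61.2 in UC 1 and 0 in UC 3. None of the 74 ribosomal protein genes (median −0.61), 10 mitochondrially encoded genes (−0.42), 5 pan-germ genes (0.31) or 3 pan-spermatogonial genes (−0.19) was called. Spermatocyte genes took 0.145% of member UMIs in T. They took 0.0427% in UC and 0.104% over the 3 VC-T libraries, among them VC-T 1, which was left out of the fit. Their level moved with the group, and its part in the other results was not tested.

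Against VC-T, the age-matched vehicle group with 2 libraries, 728 genes (31.3%) were called, 257 higher (11%) and 471 lower (20.2%), with a median of −0.22 over all genes. The 9 late spermatid genes were again lower (median −5.09), led by Prm1 (−9.43 ± 0.78, adjusted p = 2.19e-09), Prm2 (−8.36), Tnp1 (−6.09), 1700027A15Rik (−6.18) and Tnp2 (−7.03). 1700042G07Rik, 4930544D05Rik and 1700015G11Rik had 0 UMIs in T, at least 61.8-fold, 25.4-fold and 28.8-fold lower, and Otub2 and Paqr5 had ratios of 0.0196 (0.00402 to 0.0580) and 0.0133 (0.00160 to 0.0486). The higher genes with the smallest p were Gm50240 (3.32), 1700010B08Rik (3.02), the acrosomal protease inhibitor gene Spink2 (2.79), the testis form of a cytochrome oxidase subunit Cox8c (2.53), Ankrd54 (3.25), the sperm calcium channel gene Catsperz (2.23), the lactate dehydrogenase-like gene Ldhal6b (2.25), the ciliary gene Cfap206 (2.43), Dmrtb1 (2.45) and Fam98c (2.93). Several of these are genes of meiotic and postmeiotic germ cells and not of spermatogonia. Of 74 ribosomal protein genes, 45 were lower and 0 higher (median −1.30), and 3 of 10 mitochondrially encoded genes were lower.

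Against the mean of UC, VC-T and VC-R, 943 genes (40.5%) were called, 414 higher (17.8%) and 529 lower (22.7%), with a median of −0.01. Of the 9 G2/M genes, 5 were higher (Aurka, Smc4, Birc5, Cdc20 and Ccnb2), as were the spermatocyte genes Shcbp1l (2.12) and Sycp3 (1.60). The testis tubulin gene Tuba3a was the 1 of 3 pan-spermatogonial genes called, higher, and Spaca7 the 1 of 3 round spermatid genes, lower. Larp7, a subunit of the 7SK particle that holds the elongation kinase P-TEFb inactive, was higher by 1.40 ± 0.40 (adjusted p = 0.00711) and was the 1 of 3 tested BET and P-TEFb genes called. The 3 T comparisons share the T libraries, so they are not independent of each other.

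These counts rested on the make-up of the members and on single libraries. With VC-T 1 included, they were 260, 164 and 547 against UC, VC-T and all controls. All 10 higher genes named against VC-T then lost their call, at log2 fold changes from 0.65 (1700010B08Rik) to 1.68 (Ankrd54), as did Smc4 (0.77, adjusted p = 0.390) and Shcbp1l (1.08, adjusted p = 0.307) there. Pabpc2 (adjusted p = 0.0505), Dmrtb1 (0.110), Jund (0.119) and Cyp17a1 (0.107) lost theirs against UC, and Tuba3a (0.0774) and Ccnb2 (0.227) against all controls. Among members with a UMI of the germ cell genes Ddx4 or Dazl and none of the somatic lists, they were 0 (283 at an unadjusted p under 0.05), 237 and 272. Without T 1 they were 239, 432 and 595, without UC 1 the count against UC was 285, and without VC-T 2 the count against VC-T was 209.

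Among the 172 members at or under 2%, which left 12 libraries with at least 5 cells and 1272 genes tested, T against UC gave 3 called genes (0.236%) and 331 at an unadjusted p under 0.05. The 3 were Prm1 (−4.69 ± 0.63), Prm2 (−4.19) and the piRNA pathway cochaperone gene Fkbp6 (−2.34 ± 0.48, adjusted p = 0.0240), all lower in T. Prm1 and Prm2 belong to the list that sets the 2% limit, so their values in this set are a description. T against VC-T gave 388 (30.5%), 194 higher and 194 lower, and T against all controls gave 450 (35.4%), 251 higher and 199 lower. When VC-T 1 was included, 0 genes were called in any of the 3 comparisons among 1360 tested, with 125, 97 and 270 at an unadjusted p under 0.05. Each call in T given here for members at or under 2%, Uchl1, Dazl, Dmrtb1, Hspa2, Smc4, Aurka, Larp7 and the ribosomal genes among them, therefore rests on leaving out 1 control library. Late spermatid genes still took 0.103% of these members' UMIs in T, against 0.640% in UC and 0.473% over the 3 libraries labelled VC-T, and their part in the result was not tested. These UC and VC-T values include UC 1 and VC-T 1, which were not in the fit without VC-T 1. Over the same groups Prm1 was detected in 20.3% of spermatocytes in T, 73.4% in the controls and 99.9% in R.

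Without VC-T 1, Uchl1 and Dazl were called lower in these T members against VC-T and against all controls, and Dmrt1 was not. Uchl1 stood at 317, 372 and 228 CPM in T, at 837 and 868 in VC-T 2 and 3, at 396 and 727 in UC 2 and 3, and at 224 and 985 in VC-R 1 and 2. VC-R 1 lay below each T value. Uchl1 was lower by 1.71 on the log2 scale (SE 0.49, adjusted p = 0.0192) against VC-T and by 1.35 (SE 0.41, adjusted p = 0.0185) against all controls, and not called against UC (−1.05, adjusted p = 0.197). Dazl stood at 204, 149 and 228 in T, 471 and 510 in VC-T 2 and 3, and 579 and 332 in UC 2 and 3, and was lower by 1.58 (adjusted p = 0.0264) and 1.27 (adjusted p = 0.0293), and not called against UC (−1.34, adjusted p = 0.144). Its T values lay below each of those 4 libraries. VC-T 1 stood at 165 for Uchl1 and 66.1 for Dazl, below the T values. Dmrt1 (−1.16, adjusted p = 0.183) and Ddx4 (−0.19, adjusted p = 0.737) were not called against VC-T.

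Genes with higher levels in these T members had values that VC-T 1 shared. Dmrtb1 stood at 894, 559 and 481 CPM in T, 106 and 76.6 in VC-T 2 and 3, and 727 in VC-T 1, with a log2 fold change of 2.51 ± 0.58 (SE, adjusted p = 0.0137) against VC-T. The meiotic chaperone gene Hspa2 was higher by 3.02 ± 0.63 (adjusted p = 0.0137), and Smc4 by 1.51 ± 0.47 (adjusted p = 0.0234), with 803, 559 and 912 in T, 285 and 128 in VC-T 2 and 3, and 810 in VC-T 1. Aurka was not called against VC-T (1.65, adjusted p = 0.168) but was higher against all controls (4.80 ± 1.13, adjusted p = 0.00716). Larp7 was higher against all controls (1.58 ± 0.41, adjusted p = 0.00944), at 520, 670 and 557 in T and 512 in VC-T 1. Of 74 ribosomal protein genes, 61 were lower against VC-T (median −1.57), where 15.3% of all genes were called lower, and 55 against all controls (median −1.19), where 15.6% were. With VC-T 1 included, 0 ribosomal genes were called, nor were Dmrtb1, Hspa2, Smc4, Aurka and Larp7. Without VC-T 1, none of these genes was called against UC either, where the 3 called genes were Prm1, Prm2 and Fkbp6. Ribosomal protein genes took 6.97% to 8.34% of UMIs in these T members, 16.3% and 20.9% in VC-T 2 and 3, and 5.54% in VC-T 1. For Uchl1, Dazl, Dmrtb1, Smc4 and the ribosomal genes alike, VC-T 1 was nearer to T than to VC-T 2 and 3. For Uchl1, the vehicle library VC-R 1 lay between VC-T 1 and the T values.

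**Figure D4:**
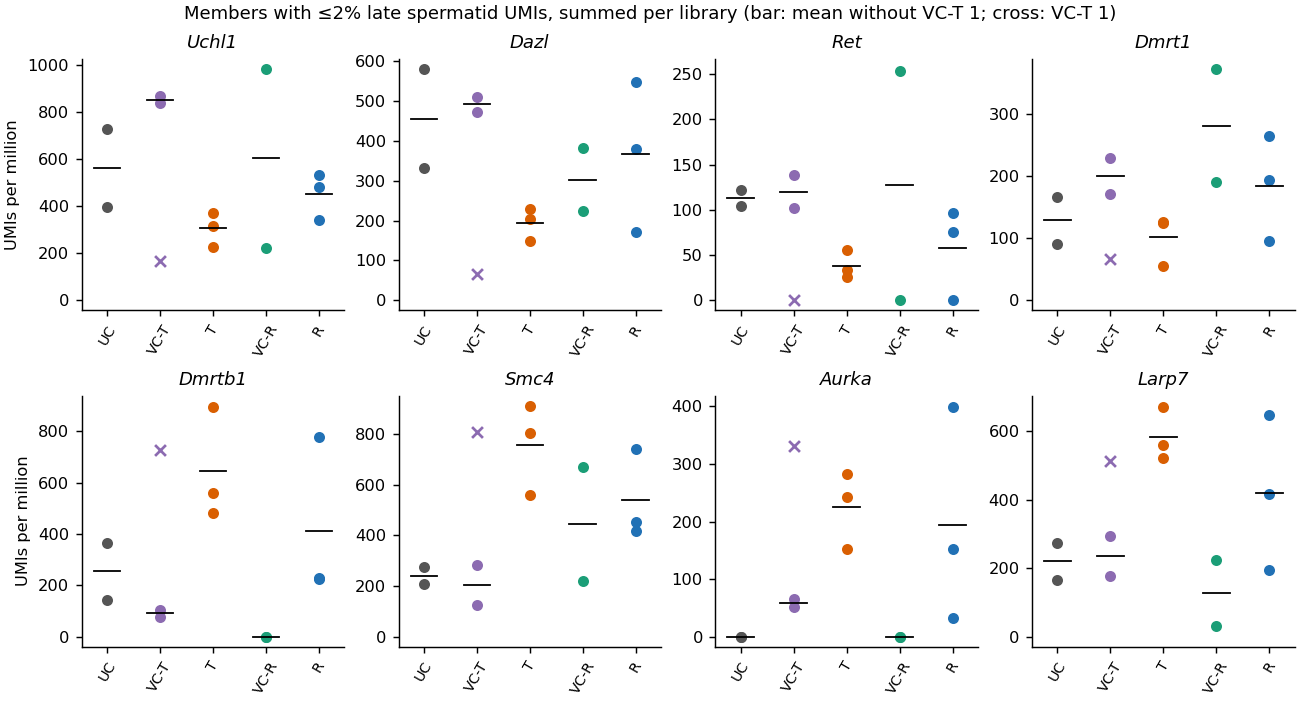
Levels of 8 genes in CPM of members with at most 2% late spermatid UMIs, summed per library, for libraries with at least 5 such cells. Points are libraries, bars are group means without VC-T 1, and the cross is VC-T 1, which stands at 165 for Uchl1 and 727 for Dmrtb1, beside T values of 228 to 372 and 481 to 894.

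The BET genes themselves were read at low counts. In members at or under 2%, Brd2 was detected in 66, Brd3 in 77 and Brdt in 48 of 172 cells. Brdt, best known from meiotic and postmeiotic cells, stood at 90.5, 55.9 and 76.0 CPM in T and overlapped VC-T 2 and 3, at 89.4 and 179. Over all members, Brd2 (0.59 ± 0.68, adjusted p = 0.558) and Brd3 (0.09 ± 0.53, adjusted p = 0.926) were not called in T against UC. Readout genes of BET inhibition were too sparse to test: Hexim1 was detected in 9 of 322 members and Myc in 0, which allows up to 0.932%. None of the 11 genes of that list passed the filter. Cell cycle genes were as sparse, with Mki67 in 20, Ccnd1 in 17 and Cdkn1a in 24 members.

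**Figure D5:**
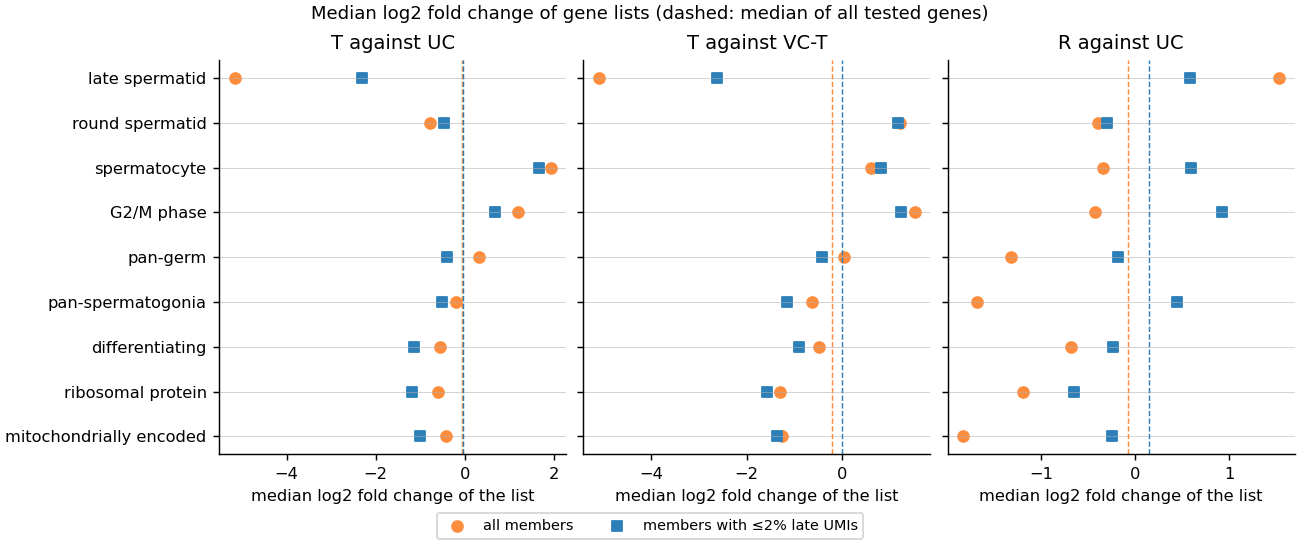
Median log2 fold change of 9 gene lists in T against UC, T against VC-T and R against UC, for all members (circles) and members with at most 2% late spermatid UMIs (squares). Dashed lines mark the median of all genes tested. The late spermatid median is −5.16 in T against UC for all members and −2.32 for the members with at most 2%.

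In the comparison after recovery, the members of R carried more late spermatid transcript than those of UC. In R against UC, 397 of 2327 genes (17.1%) were called, 109 higher (4.68%) and 288 lower (12.4%), with a median of −0.08. With DESeq2's size factors in place of TMM the split was 356 higher and 197 lower, and with DESeq2 303 and 170. The median of all genes moved up by 0.30, so the split by direction depended on the scaling. The fold changes and counts given for R against UC are those with TMM unless stated, and they were not corrected for that shift. Of 9 late spermatid genes, 6 were higher (median 1.53, and 1.84 with DESeq2's size factors), and 102 of the 109 higher genes had over 2 times the CPM in late haploid cells as in differentiating spermatogonia. The list took 14.4% to 21.6% of member UMIs in R and 5.82% to 9.52% in UC. The higher genes with the smallest p were 4930570D08Rik (2.66), the sperm aldolase gene Aldoart2 (2.45), Tmsb15a (2.68), 1700015G11Rik (2.18), 1700027A15Rik (1.96), Fam161a (1.85), Gm34662 (2.59), Prkar2a (2.05), Ppp2r2b (2.27) and 4933421O10Rik (2.09).

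The gene lower in R against UC with the smallest p was Prdx1, a peroxiredoxin, which stood at 103, 87.0 and 48.9 CPM in R and 337, 798 and 813 in UC (−2.94 ± 0.50, SE, adjusted p = 0.00487), with no overlap. Psmb2 (−2.92), Bnc2 (−2.89), Rpl10a (−2.49), Cox8a (−2.39), Rps3 (−2.21), mt-Co3 (−2.27), the histone demethylase gene Kdm5b (−2.31) and Hspe1 (−2.54) were also among the 10 with the smallest p. Tex19.1, a germline transposon control gene, had 2 UMIs in R and 18 in UC, a ratio of 0.0144 (0.00163 to 0.0603). Uchl1 (−1.69), Dmrt1 (−1.99), Dazl (−1.97), the piRNA helicase gene Mov10l1 (−2.53) and Hells (−2.25) were lower, as were 36 of 74 ribosomal protein genes and 8 of 10 mitochondrially encoded genes. Zbtb16 and Nanos3 are counted among the 288 but chose the members, and are given no test. Among members at or under 2%, 0 genes were called in R against UC (53 at an unadjusted p under 0.05). There Uchl1 stood at −0.32, Dazl at −0.28 and Dmrt1 at 0.45 (adjusted p = 0.890), the last with its sign turned.

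The R against UC count depended on single libraries. It was 0 without R 3 (368 at an unadjusted p under 0.05), 0 without UC 2 (676), 3 without UC 3, 247 without R 2 and 258 without UC 1, and 0 with VC-T 1 in the shared fit (485 unadjusted). R 3 held 75 of the 122 R members.

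Against VC-R, the vehicle group of the same age, 0 of 2327 genes were called by edgeR (0%), with 217 at an unadjusted p under 0.05, and 0 by DESeq2, with 172. Late spermatid genes took 14.4% to 21.6% of member UMIs in R and 9.67% to 18.3% in VC-R, with a list median of 0.54 beside 0.05 for all genes. Uchl1 stood at 137, 106 and 33.4 CPM in R and 187, 265 and 167 in VC-R (−1.33 ± 0.53, adjusted p = 0.415). The ranges of Uchl1 did not overlap, yet the gene was not called. Among members at or under 2%, 0 genes were called, with 66 at an unadjusted p under 0.05.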

How the data were processed

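Cells came from 10x 3′ libraries of whole testis. The authors aligned reads to mm10 and the deposited files hold raw UMI counts per gene and barcode. The labels name Cell Ranger 3.0.0, the file headers name another version, and whether introns were counted is not given in the sources used here. The study's later steps corrected ambient RNA with SoupX and removed doublets with DoubletFinder. Neither was done here, and droplets with 2 cells and free RNA may remain among the kept cells. The 5.4% of kept cells with the highest Scrublet scores were left out as an alternative.

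The members and gene lists were chosen with earlier results of these data known. Members' UMIs were summed per library (at least 5 members) and tested with edgeR 4.0.16 in R 4.3.3 (quasi-likelihood, TMM, filterByExpr) over 5 groups without VC-T 1. DESeq2 1.42.0 was an alternative. The test was tested on simulated counts before use. Cell counts used exact permutation tests (scipy 1.17.1, Python 3.11.15) and scanpy 1.11.5. Each library was 1 mouse. The text names the 10 called genes with the smallest p in each direction, a fixed set of regulators, and called genes of each list. Gene positions were taken from GENCODE for mm10. The labels do not say that mice of the same replicate number were paired. Deviations from the group means of same-numbered R and VC-R libraries had correlations of 0.57, 0.22 and 0.32. Libraries of different numbers were not compared, so these values do not show a pairing. The blocked fit of R against VC-R also called 0 genes. Some genes are not reported here.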

Additional observations from a re-analysis of the deposited data

Results flagged for a closer look

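The change in T against VC-T and the change in R against VC-R differed for 327 of 2327 genes over all members (edgeR's test of the difference of the 2 changes, adjusted p under 0.05 and absolute log2 difference over 1), 21 with a higher and 306 with a lower change in T. All 9 late spermatid genes were among the lower (median −5.63), and 269 of the 306 had over 2 times the CPM in late haploid cells as in differentiating spermatogonia. Among members with at most 2% late spermatid UMIs, 2 of 1272 genes differed, Prm1 (−6.75) and Prm2 (−4.82), both with a lower change in T, and 77 did so at an unadjusted p under 0.05. Both belong to the list that sets the 2% limit, which kept 55 of 55 members of T and 19 of 122 of R, so their difference is a description. VC-T 1 was left out of both fits.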

How the results depend on the processing

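Of 74 alternative values for the cell shares and ratios, 71 kept their side of the threshold in the exact permutation test, but the sign was opposite in 7 of 19 for the T share, 5 of 19 for the T ratio, 10 of 18 for the R share and 7 of 18 for the R ratio. The R ratio became a difference of 109.886 (exact permutation p = 0.0476) without the exclusion on Stra8, Piwil1 and Acrv1, and turned to −15.4969 at or under 2% late UMIs and −13.9943 with a spermatogonial gene as well (p = 0.0476 each). Leaving out 1 library gave −0.105 to 0.00599 for the T share, −10.6 to −2.92 for the T ratio, −0.0560 to 0.0671 for the R share and −4.46 to 15.6 for the R ratio, with 0.114 the lowest p.

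Counts of called genes moved by over 1.5 times in 38 of 99 alternatives. For T against UC, T against VC-T, T against all controls and R against UC in turn, leaving out 1 library gave 239 to 436, 209 to 635, 595 to 1174 and 0 to 548, and R against VC-R stayed at 0. With VC-T 1 included they were 260, 164, 547 and 0. Members with Ddx4 or Dazl and no somatic UMI gave 0, 237, 272 and 0. Members at or under 2% gave 3, 388, 450 and 0, with VC-T 1 included 0 for the 3 T comparisons, and with a spermatogonial gene 43, 115, 114 and 1, with 1 library each left in R and VC-R. Without a filter on low counts the counts were 225, 353, 843 and 1184, and 10 for R against VC-R. At least 10 cells a library gave 254 for T against UC and 227 for R against UC, only the compared groups 481 for T against VC-T, doublet-scored cells left out 70 for R against UC, and 3 or more markers 341 for R against VC-R, where 540 genes were tested on 1 library a group, assumed to vary like the others, so that count compares those libraries. The 3-marker alternative could not be fitted for T, whose libraries held under 5 such cells. The cause was not tested except where fewer libraries or cells entered.

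Adding a replicate block, 449, 502, 867, 355 and 0 genes were called in the 5 comparisons (R against VC-R last), within 1.5 times of the reported counts. The labels give no pairing by number in any group, and outside R against VC-R the same-number correlations were −0.21 to 0.08. Of 2935 values for single named genes, 2378 were alike, 544 lost their call, 9 gained one and 4 changed sign, all in R against UC: Dmrt1 at 0.45 at or under 2% and 0.53 with a spermatogonial gene, and there Dazl at 0.35 and Hells at 0.49, from R 2 alone with 6 cells. Depth limits the members to 23953 to 838070 summed UMIs a library, and most stem cell genes could not be tested. Intervals and limits cover counting error only.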
